A study of Homo sapiens with 6 samples.

Results

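The genes of the integrins, collagens and laminins were followed in RNA sequencing of Huh-7 cells with and without stable RAC3 overexpression. Members were every gene in the authors' table whose symbol is that of an integrin alpha or beta chain, a collagen alpha chain, or a laminin alpha, beta or gamma chain. Genes of integrin-binding proteins, collagen glycosyltransferases and collectins were not members. Of 20332 genes in the table, 82 qualified, made up of 44 collagens, 26 integrins and 12 laminins. Huh-7 is an established line from a human hepatocellular carcinoma (HCC). The study compared 3 samples of Huh-7 cells that stably overexpressed RAC3, a small GTPase, with 3 samples of their negative controls. Both groups came from the same parental line, and no drug treatment or time course is given for these samples. The negative controls carry the genotype label WT. For the RAC3 samples 2 and 3 the genotype entries read RAC4 and RAC5 overexpression, whereas their titles and the study's methods give RAC3, and they were kept as RAC3 samples. The methods call the RNA samples independent but do not say that they came from separate cultures or separate transduced pools, so the p-values measure only the spread between these samples, which may be technical.

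Integrins are transmembrane receptors made of 1 alpha and 1 beta chain, and the pairing decides which matrix protein is bound, such as fibronectin, collagen or laminin. Collagens are triple helices of alpha chains: the fibrillar types build fibres, the FACIT types (fibril-associated collagens with interrupted helices) coat them, and type IV forms the network of basement membranes. Laminins are trimers of an alpha, a beta and a gamma chain and form the other network of basement membranes. Rac GTPases act downstream of integrins in cell spreading, and attachment through integrins gives the survival signals whose loss triggers anoikis, the subject of the study.

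RAC3 had 35.6, 31.4 and 32.8 normalized CPM (counts relative to the TMM-scaled library size) in the negative controls and 232.6, 239.6 and 225.4 after RAC3 overexpression, a log2 fold change of 2.81 (SE 0.0574, adjusted p = 9.6e-18 in edgeR's quasi-likelihood test). The 2 samples with the deviating genotype labels were at the level of the RAC3 sample 1. Total counts lay between 13855762 and 18199888 per sample, and the members took between 0.588% and 0.642% of them. A count of 0 in 1 sample allows up to 3 counts, or 0.165 to 0.217 CPM, for counting error only. All 9 hepatocyte-like tumour markers (such as ALB, AFP and HNF4A) had a mean of at least 1 FPKM, with a summed level of 2047 to 2365 FPKM. Of 7 endothelial markers none reached 1 FPKM, and of 8 leukocyte markers 1 did, CD14, while PTPRC, the pan-leukocyte marker, had at most 0.12 FPKM.

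Levels of different genes were compared on the authors' FPKM values, which are counts per length and depth. The most abundant member was COL5A2, a chain of type V collagen, which regulates the diameter of collagen fibrils, with 209.7 ± 3.87 FPKM (SD, n = 3) in the negative controls and 191.2 ± 4.47 with RAC3. It was followed by the FACIT chain COL14A1 with 160.8 ± 1.203 and 146.4 ± 4.53 FPKM. COL5A1, the chain that joins COL5A2 in the common form of type V collagen, had 1 count in all 6 samples together. Next came ITGB1, the beta chain shared by most matrix-binding integrins, with 86.98 ± 5.59 FPKM in the negative controls and 94.5 ± 3.39 with RAC3.

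The next levels in the negative controls were 77.2 ± 0.993 FPKM for COL18A1, whose C-terminal fragment is endostatin, and 72.5 ± 1.46 for LAMC1, the gamma chain of most laminins. LAMA5 (47.3 ± 1.46 FPKM) and ITGB5 (46.2 ± 1.85) did not differ beyond their spread, and ITGAV (41.4 ± 1.86) and LAMB1 (39.0 ± 1.45) followed. Among the integrins the highest FPKM were those of ITGB1, ITGB5, ITGAV, ITGA5, ITGA1 and ITGA6, and among the laminins those of LAMC1, LAMA5, LAMB1 and LAMB2. COL5A2 and COL14A1 together made up 34.7% of the summed FPKM of all members in the negative controls. Summed over families, the collagens had 629, 621 and 604 FPKM in the negative controls against 561, 534 and 564 with RAC3, without overlap. COL5A2, COL14A1 and COL18A1 made up 72.5% of the collagen sum in the negative controls, so this sum mainly follows these 3 chains. The integrins had 246.7, 257.9 and 258.2 against 266.1, 254.6 and 266.9 FPKM, and the laminins 192.6, 198.3 and 194.1 against 195.9, 189.0 and 193.6 FPKM, and both of these overlapped between the groups.

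**Figure D1:**
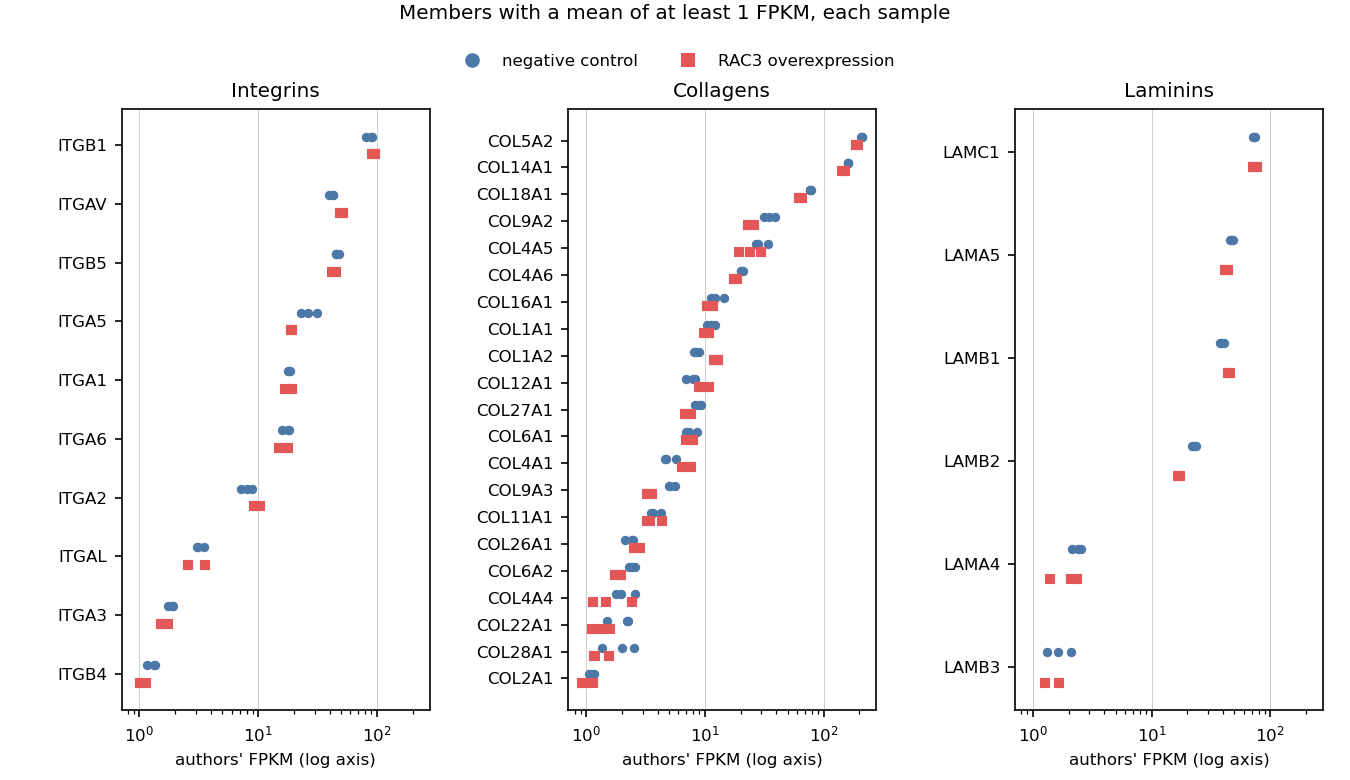
FPKM (authors' values, log axis) of 37 of the 38 members with a mean of at least 1 FPKM, by family, with 1 point per sample: circles for the negative controls, squares for RAC3 overexpression. Levels between members span from about 1 FPKM (COL2A1, ITGB4) to 209.7 FPKM (COL5A2 in the negative controls), while the 6 points of most members lie close together.

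Many members were silent. In all 6 samples 12 members had 0 counts: COL6A5, COL8A1, COL13A1, COL15A1, COL20A1, COL25A1, ITGA8, ITGA11, ITGAD, ITGAX, LAMA1 and LAMC3. Another 18 had counts too low to be tested, between 1 count (COL5A1) and 53 counts (ITGB6) over all samples, among them ITGB2 (4 counts), the beta chain of the leukocyte integrins, and ITGB3 (44 counts), an alternative partner of ITGAV. Exons of AC068234.1 on the same strand cover 51.6% of the exonic bases of ITGB3, and those of AC092153.1 cover 20.6% of ITGB6. How reads in such overlaps were counted is not stated, so the counts of ITGB3 and ITGB6 may be incomplete. Tested were 52 members: 29 collagens, 15 integrins and 8 laminins. Only these could be called, so the counts below do not speak for the 30 members that stayed below the filter on low counts.

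With RAC3 overexpression, 8 members rose and 18 fell at an adjusted p-value below 0.05 in edgeR's quasi-likelihood test, and 26 did not pass. This is 50% of the members tested, beside 28.5% of all 12941 genes (13.3% higher, 15.3% lower). Well-measured genes pass more often: among genes with a mean of at least 500 counts 40.8% passed, and of the 24 members at that level 6 rose and 12 fell. Their changes were small, since none of these 24 exceeded a fold change of 1.5, which 1.21% of all genes at that level did with an unadjusted p below 0.05. The study's own thresholds were a change of more than 1.5-fold up or down with an unadjusted p below 0.05. Past these in edgeR's fit, 3 members were higher (ITGA9, ITGB8 and LAMA3) and 4 lower (COL4A2, COL7A1, COL9A3 and COL21A1). They were 13.5% of those tested beside 4.68% of all genes (1.68% higher, 2.99% lower). These shares belong to this fit and not to the study's own list of changed genes, whose counts differ. Both rules were met by 5 members, all but ITGB8 and COL21A1, and by 3.55% of all genes. All 7 are transcribed at low levels, with a mean between 8.33 counts (COL21A1) and 166 counts (COL9A3). The normalized CPM of the groups did not overlap for 34 of the 52 members, beside 42.5% of all genes. In bulk RNA, fewer cells that transcribe a gene and less RNA per cell cannot be told apart.

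Counted by family, without a test of the difference between families, the calls were as follows. Of the collagens tested, 13 fell and 3 rose, with a median log2 fold change of -0.21, beside 0.0036 for all genes tested. Of the integrins 3 fell and 3 rose (median 0.0085), and of the laminins 2 fell and 2 rose (median -0.00028). Passing were 55.2% of the collagens, 40% of the integrins and 50% of the laminins. All genes passed at 28.5%, and those with a mean of at least 500 counts at 40.8%.

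**Figure D2:**
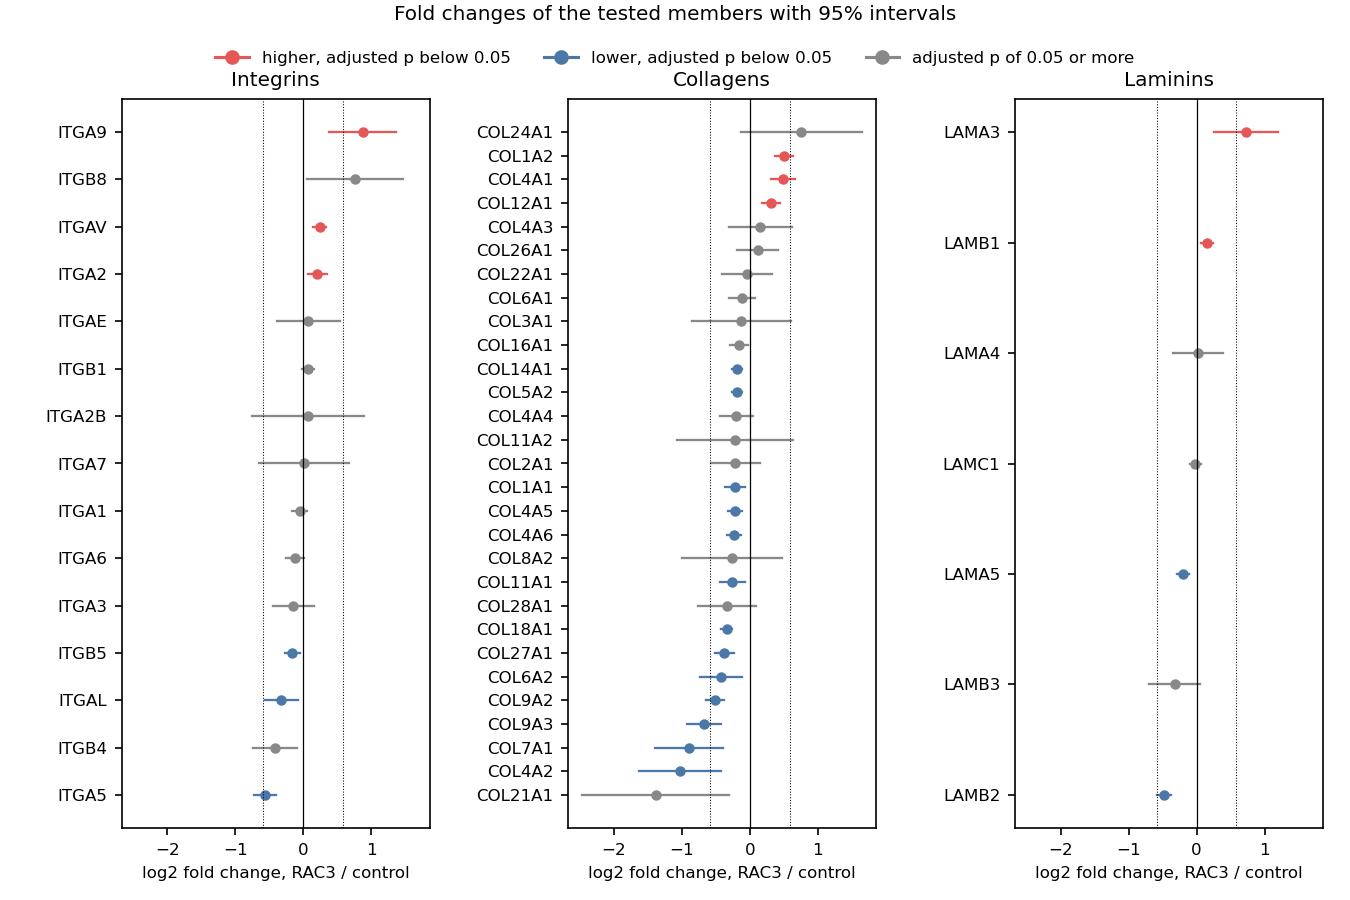
Log2 fold change (RAC3 overexpression over negative control, with its 95% interval) of 51 of the 52 tested members, by family. Red marks the 8 members that were higher and blue the 18 that were lower at an adjusted p below 0.05, grey the others, and dotted lines a fold change of 1.5. Among the collagens blue points prevail (13 lower, 3 higher), and the widest intervals belong to members with few counts such as COL21A1.

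Among the integrins, the alpha chains that bind fibronectin and other ligands with an RGD motif moved in opposite directions. ITGA5, the alpha chain of the classical fibronectin receptor, had 128.7, 108.2 and 98.7 normalized CPM in the negative controls and 71.5, 79.7 and 75.8 with RAC3. Every RAC3 sample was below every negative control, and ITGA5 fell by 0.56 on the log2 scale (SE 0.0755, adjusted p = 2.1e-05 in edgeR's quasi-likelihood test). ITGAV, the alpha chain of the vitronectin receptors, had 274.2, 291.5 and 297.7 normalized CPM in the negative controls and 352.2, 319.8 and 350.8 with RAC3, all above the negative controls. It rose by a log2 fold change of 0.24 (SE 0.0469, edgeR adjusted p = 7.2e-04). The ratio of ITGA5 to ITGAV counts was 0.469, 0.371 and 0.332 in the negative controls and 0.203, 0.249 and 0.216 with RAC3. The ratio was lower in 3 of 3 RAC3 samples, with a two-sided exact permutation p of 0.1, the smallest that 3 against 3 samples can give. ITGA5, ITGAV and the other pairs of genes given as ratios here were picked after their values had been seen. When the trend of each library with the GC content of transcripts was removed, ITGAV was at 0.067 (adjusted p = 0.187 in edgeR), no longer past the test, while ITGA5 stayed at -0.46.

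Of the abundant beta chains, ITGB1 had a log2 fold change of 0.071 (95% interval -0.023 to 0.16, edgeR adjusted p = 0.259), so an increase or decrease by a fold of 1.5 lies outside its interval. ITGB5, the partner of ITGAV, fell by 0.16 on the log2 scale (edgeR adjusted p = 0.029). This call was lost without the negative control 1 (adjusted p = 0.109), without the RAC3 sample 3 (0.174) and with the GC trend removed (0.341, edgeR). Among the collagen-binding alpha chains, ITGA2 rose by 0.21 (edgeR adjusted p = 0.0188), which was lost without the negative control 1 or 2 or the RAC3 sample 1 (adjusted p = 0.0881, 0.084 and 0.0813 in edgeR). With the GC trend removed ITGA2 was at 0.10. ITGA1, the other collagen receptor chain, had a log2 fold change of -0.050 (95% interval -0.16 to 0.058). None of the laminin-binding alpha chains ITGA3, ITGA6 and ITGA7 passed, with log2 fold changes of -0.14, -0.12 and 0.0085. ITGB4, the laminin-binding partner of ITGA6 in hemidesmosomes, was at -0.41 with an edgeR adjusted p of 0.053.

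The largest increase of a called integrin was that of a rare chain. ITGA9, which binds tenascin C and osteopontin among others, had 28, 28 and 38 counts in the negative controls against 69, 58 and 51 with RAC3, or 2.01, 1.86 and 2.12 against 3.88, 3.52 and 3.62 normalized CPM. The groups did not overlap, and ITGA9 rose 1.84-fold (log2 0.88, SE 0.236, edgeR adjusted p = 0.00899). The authors' FPKM values of ITGA9 did overlap between the groups, and 6.5% of its exonic bases lie opposite exons of ITGA9-AS1. ITGB8, a chain that pairs with ITGAV and activates latent TGF-beta, had 14, 19 and 15 counts in the negative controls against 36, 28 and 21 with RAC3. It passed the study's thresholds in edgeR's main fit (log2 0.76) but not the adjusted test (edgeR adjusted p = 0.101). With DESeq2, the tool named by the submitters, or with the replicate number as a block, ITGB8 did not pass these thresholds. Nor did it without the negative control 1 or 3 or the RAC3 sample 1 or 2. ITGAL, the alpha chain of the leukocyte integrin LFA-1, fell by 0.32 on the log2 scale (edgeR adjusted p = 0.0445), a call lost when any 1 of the 6 samples was left out (adjusted p from 0.0502 to 0.142). Its leukocyte partner ITGB2 had 4 counts, and 9.6% of the exonic bases of ITGAL lie opposite other genes. The deposited counts come with no statement on strand, so reads of a gene and of genes opposite to it cannot be told apart.

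The fibrillar collagens held the pair of type I collagen chains, which normally join as 2 chains of COL1A1 with 1 of COL1A2. COL1A2 had 42.1, 46.0 and 43.4 normalized CPM in the negative controls and 64.2, 63.1 and 59.2 with RAC3. The groups were clearly apart, and COL1A2 rose by a log2 fold change of 0.51 (SE 0.0634, edgeR adjusted p = 9.9e-06). COL1A1 had 39.3, 36.5 and 39.1 normalized CPM against 32.6, 33.6 and 32.7, also without overlap but in the other direction. It fell by 0.22 on the log2 scale (SE 0.0693, edgeR adjusted p = 0.0242). The COL1A1 call was lost without the negative control 1 or 3 or the RAC3 sample 1 or 3 (edgeR adjusted p between 0.06 and 0.0737). With the GC trend removed COL1A1 was at -0.048. The call was also lost with DESeq2 (adjusted p = 0.0539 in DESeq2), and the authors' FPKM values of COL1A1 overlapped between the groups. The ratio of COL1A1 to COL1A2 counts was 0.934, 0.793 and 0.902 in the negative controls and 0.507, 0.532 and 0.553 with RAC3, lower in 3 of 3 samples (two-sided exact permutation p = 0.1, the smallest possible).

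COL1A2 is also 1 of 9 markers of stellate cells and fibroblasts, the main collagen producers of the liver, and their part in its change was not tested. Their summed level was 64.9 to 71.1 FPKM in the negative controls and 81.33 to 88.01 with RAC3, and 3 of the 9 (COL1A2, LUM and RGS5) had a mean of at least 1 FPKM. LUM, a proteoglycan of collagen fibrils, made up most of the sum and rose with a log2 fold change of 0.22 (edgeR adjusted p = 0.00291). Of the 6 markers tested, 3 had positive and 3 negative log2 fold changes, the latter PDGFRB (-0.71, past the study's thresholds, edgeR adjusted p = 0.0573), PDGFRA (-0.56, adjusted p = 0.107) and COL3A1 (-0.12). THY1 was at 0 in every sample, and ACTA2 and DCN had 16 and 15 counts over all samples.

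COL5A2, the most abundant member, had 1482, 1463 and 1414 normalized CPM in the negative controls and 1274, 1246 and 1300 with RAC3, lower in each RAC3 sample. It fell by 0.19 on the log2 scale (SE 0.0359, edgeR adjusted p = 6.0e-04). COL27A1, a fibrillar chain of cartilage, had 68.3, 70.9 and 61.1 normalized CPM against 49.2, 51.4 and 54.0. It fell by 0.37 (edgeR adjusted p = 3.6e-04), and by 0.22 with the GC trend removed. COL11A1 fell by 0.26 (edgeR adjusted p = 0.0358), which was lost when any sample other than the negative control 3 was left out (adjusted p from 0.0538 to 0.142). COL3A1, the second fibrillar collagen of most connective tissues, had only 15 to 29 counts per sample, and its log2 fold change of -0.12 had a 95% interval from -0.85 to 0.60.

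Of 7 FACIT collagens tested, 3 fell, 1 rose and 3 did not pass (57.1% passing, beside 28.5% of all genes). COL9A2 and COL9A3 encode chains of type IX collagen, which decorates the type II fibrils of cartilage. COL9A2 had 107.2, 99.4 and 91.6 normalized CPM in the negative controls and 71.6, 65.2 and 72.5 with RAC3, and fell by 0.51 on the log2 scale (SE 0.0638, edgeR adjusted p = 9.9e-06). COL9A3 had 13.2, 12.9 and 12.7 against 8.10, 7.95 and 8.16 normalized CPM, and fell by 0.68 (SE 0.119, edgeR adjusted p = 3.0e-04). In both genes all RAC3 samples lay below all negative controls, and the groups of COL9A3 were tight. With the GC trend removed, COL9A2 fell by 0.27 and COL9A3 by 0.50, so that COL9A3 was no longer past a fold change of 1.5, though both remained below an adjusted p of 0.05 (0.00258 and 0.00437 in edgeR). The third chain of type IX, COL9A1, had 24 counts in all.

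COL14A1, the second most abundant member, fell by 0.19 on the log2 scale (edgeR adjusted p = 7.1e-04). COL12A1, a close relative of COL14A1 that also binds type I fibrils, went the other way. It had 67.3, 64.1 and 62.5 normalized CPM in the negative controls and 83.1, 72.9 and 83.8 with RAC3, and rose by a log2 fold change of 0.31 (SE 0.063, edgeR adjusted p = 0.00126). The RAC3 sample 2 lay closest to the negative controls, but the groups did not overlap. COL21A1 had 10, 14 and 12 counts in the negative controls against 6, 3 and 5 with RAC3, passed the study's thresholds (log2 -1.38) and missed the adjusted test (edgeR adjusted p = 0.0512). Without the negative control 2 or the RAC3 sample 2, COL21A1 was not among the members past these thresholds.

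The type IV collagen genes are arranged in head-to-head pairs that are transcribed away from each other. In RefSeq on GRCh38.p14, COL4A1 starts on the minus strand at position 110307157 of chromosome 13 and COL4A2 on the plus strand at 110307284, a distance of 127 bases. The 126 bases between both starts (chr13:110307158-110307283, plus strand, RefSeq) are shown because they hold the shared promoter of the type IV pair with the most unequal change, and capitals mark the only matches to CCAAT and GGGCGG on either strand.
COL4A1-COL4A2: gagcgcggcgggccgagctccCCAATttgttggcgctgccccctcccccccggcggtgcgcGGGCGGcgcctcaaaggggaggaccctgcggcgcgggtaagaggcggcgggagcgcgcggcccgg
The stretch is 80.2% GC. CCAAT begins 105 bases and GGGCGG 65 bases before the COL4A2 start, and the stretch has no TATAAA on either strand. Among 35116 RefSeq promoter windows trimmed to the same length, 21.1% hold CCAAT, 34.6% GGGCGG and 5.9% TATAAA. These matches describe letters only. GENCODE release 29 places the start of COL4A2 earlier, at 110305812, inside the span of COL4A1, on the opposite strand.

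COL4A1 and COL4A2 encode the chains of the common type IV collagen of basement membranes, at 2 of COL4A1 to 1 of COL4A2. COL4A1 had 24.4, 28.97 and 26.5 normalized CPM in the negative controls and 41.0, 36.4 and 34.1 with RAC3, all higher. It rose by a log2 fold change of 0.48 (SE 0.085, edgeR adjusted p = 3.0e-04). COL4A2 had 59, 35 and 52 counts in the negative controls against 25, 29 and 20 with RAC3, or 4.23, 2.33 and 2.90 against 1.41, 1.76 and 1.42 normalized CPM, all lower. It fell by 1.03 on the log2 scale (SE 0.29, edgeR adjusted p = 0.0119). Leaving out the negative control 1, the highest of its group, gave -0.78 for COL4A2 with an edgeR adjusted p of 0.0872, and leaving out the RAC3 sample 1 gave -0.97 with 0.052, so the call rests on these samples.

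There were 5.76, 12.4 and 9.13 counts of COL4A1 per count of COL4A2 in the negative controls and 29.1, 20.7 and 24.1 with RAC3. The groups did not overlap, and the log2 ratio was higher by 1.49 (two-sided exact permutation p = 0.1, the smallest possible). The other head-to-head pairs did not separate in this way. COL4A5 and COL4A6, on chromosome X with starts 380 bases apart in RefSeq, fell alike, by 0.22 and 0.23 on the log2 scale (edgeR adjusted p = 0.00364 and 0.00188), and their count ratio was 0.841 ± 0.0169 (SD, n = 3) in the negative controls and 0.848 ± 0.0614 with RAC3. In the authors' FPKM values, however, the groups of COL4A5 overlapped, and the ratio of COL4A5 to COL4A6 ranged more widely, from 1.05 to 1.69 over the samples. COL4A3 and COL4A4, on chromosome 2, had log2 fold changes of 0.15 and -0.20, neither past the test, and their ratio of 0.246 ± 0.031 against 0.319 ± 0.0557 had a two-sided exact permutation p of 0.2.

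**Figure D3:**
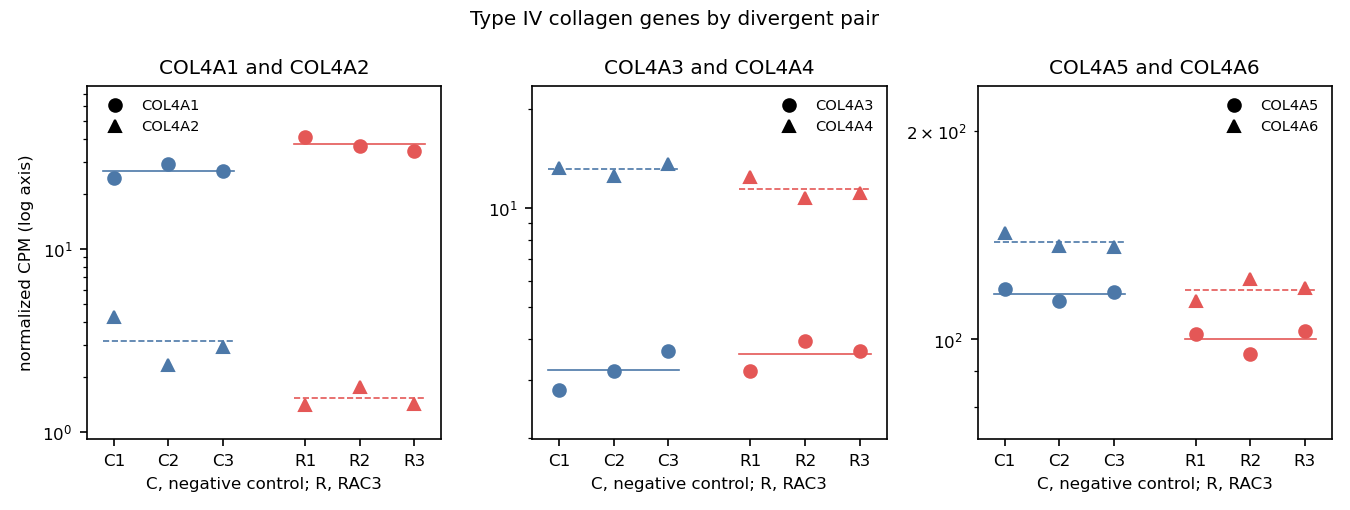
Normalized CPM (log axis) of the 6 type IV collagen genes by head-to-head pair, 1 point per sample, with lines at the group means; C1 to C3 are negative controls (blue) and R1 to R3 RAC3 overexpression (red). COL4A1 lies higher and COL4A2 lower in the red samples, while COL4A5 and COL4A6 lie lower together.

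COL18A1, a basement membrane collagen, had 426.5, 415.5 and 412.6 normalized CPM in the negative controls and 320.9, 327.2 and 343.0 with RAC3. Both groups were tight and apart, and COL18A1 fell by 0.34 on the log2 scale (SE 0.0408, edgeR adjusted p = 6.3e-06). With the GC trend removed it fell by 0.11 (edgeR adjusted p = 0.032), and 16.4% of its exonic bases lie opposite exons of SLC19A1. COL7A1, the anchoring fibril collagen that ties epithelial basement membranes to the stroma, had 73, 65 and 81 counts in the negative controls against 57, 42 and 24 with RAC3. In normalized CPM these were 5.23, 4.33 and 4.52 against 3.21, 2.55 and 1.70, lowest in the RAC3 sample 3. COL7A1 fell by 0.89 (SE 0.238, edgeR adjusted p = 0.00836).

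COL6A2, a chain of the beaded filaments of type VI collagen, fell by 0.42 on the log2 scale (edgeR adjusted p = 0.0403), lost without any 1 sample other than the negative control 3 (adjusted p from 0.0668 to 0.123) and with the GC trend removed (-0.20). Its neighbour COL6A1 was at -0.11 and did not pass. COL6A3, the chain that completes the usual type VI trimer, had 14 counts in all. COL26A1, COL28A1 and COL8A2, the most abundant chains of the smaller collagen classes, had log2 fold changes of 0.11, -0.34 and -0.26 and did not pass (edgeR adjusted p = 0.602, 0.226 and 0.624).

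Of the laminins, both abundant beta chains changed, in opposite directions. LAMB2 had 132.7, 126.9 and 136.3 normalized CPM in the negative controls and 94.3, 93.5 and 97.2 with RAC3, without overlap. It fell by 0.48 on the log2 scale (SE 0.0506), with the smallest adjusted p of all members (1.6e-06 in edgeR), and by 0.32 with the GC trend removed. LAMB1 had 202.0, 217.5 and 206.3 normalized CPM against 234.0, 235.1 and 227.8, all higher with RAC3. It rose by a log2 fold change of 0.16 (SE 0.0442, edgeR adjusted p = 0.0126), and without the negative control 3 its adjusted p was 0.0512. LAMC1, the gamma chain that joins either of them, stayed within the spread, with 587 ± 7.80 and 578 ± 17.0 normalized CPM (SD, n = 3) and a 95% interval of the log2 fold change from -0.10 to 0.059.

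Among the alpha chains, LAMA5 fell by 0.20 (edgeR adjusted p = 0.00165) but was at 0.022 with the GC trend removed. LAMA3, the alpha chain of the epithelial laminin that ITGA6 and ITGB4 bind, had 33, 38 and 40 counts in the negative controls against 69, 61 and 59 with RAC3. These were 2.36, 2.53 and 2.23 against 3.88, 3.70 and 4.18 normalized CPM, and LAMA3 rose 1.65-fold (log2 0.72, SE 0.225, edgeR adjusted p = 0.0213). Leaving out the negative control 3 or the RAC3 sample 1 or 3 brought its adjusted p to 0.066, 0.0548 and 0.0658. LAMB3, the beta chain that joins LAMA3 in that laminin, was at -0.32 and did not pass (edgeR adjusted p = 0.188). LAMA4, an alpha chain of vascular and muscle basement membranes, was at 0.021 with a 95% interval from -0.34 to 0.39.

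**Figure D4:**
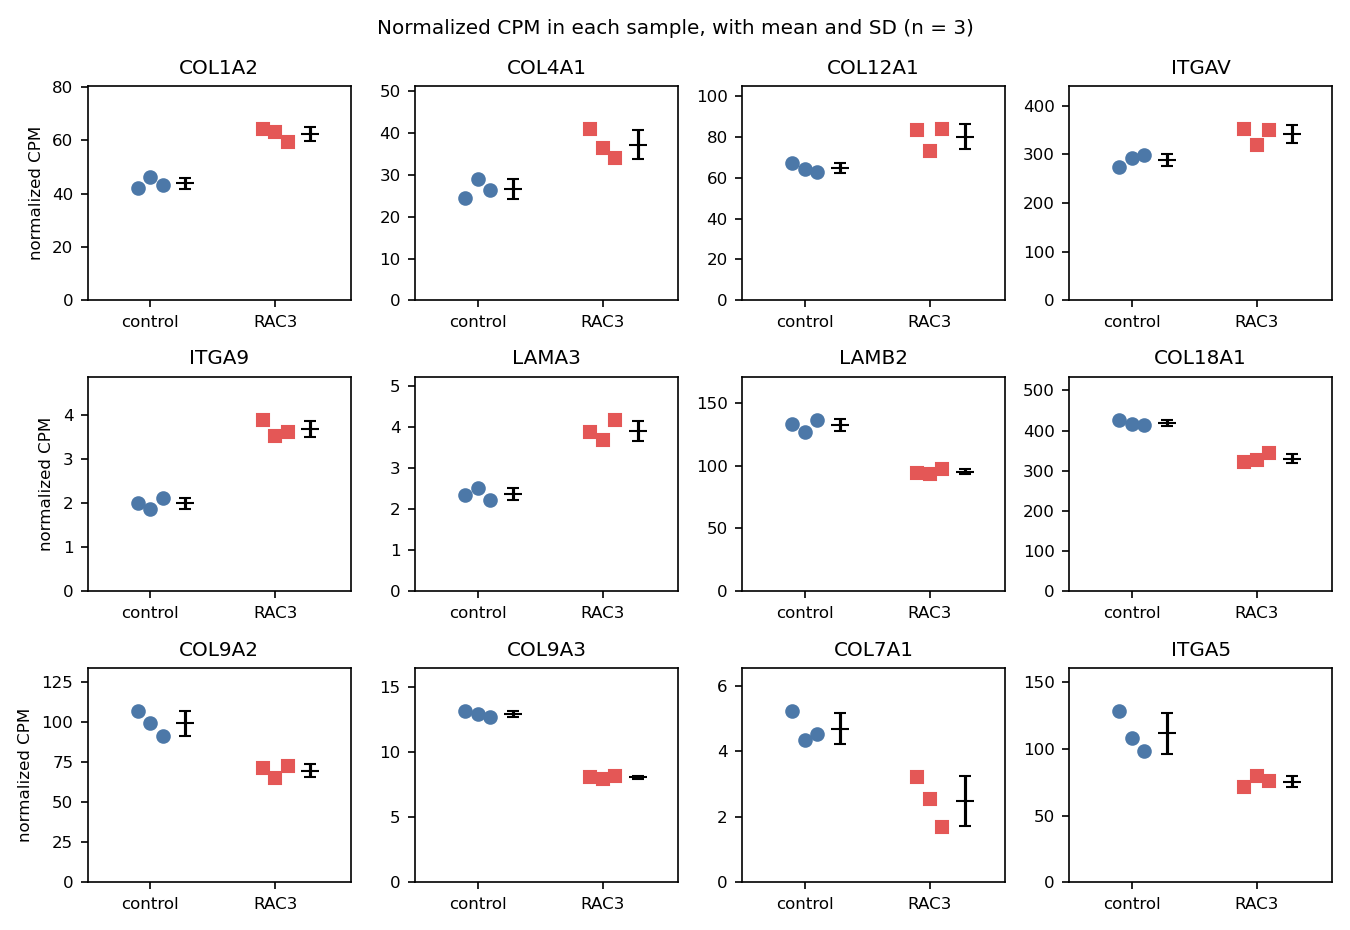
Normalized CPM (linear axes from 0) of 12 members in each sample, circles for the negative controls and squares for RAC3 overexpression, with the mean and SD of each group of 3 beside the points. The first 6 (COL1A2 to LAMA3) were higher and the last 6 (LAMB2 to ITGA5) lower with RAC3, and in none of the 12 do the groups overlap.

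The direction of change went along with base composition. Median transcript GC content was 47.2% (range 38.2% to 52.8%) for the 8 members that rose and 58.4% (46.3% to 66.8%) for the 18 that fell, beside 49.8% for all genes tested. When the trend of each library with GC content was removed, 22 members passed, 19 of them among the 26, beside 20.5% of all genes. COL1A1, COL6A2, ITGA2, ITGAL, ITGAV, ITGB5 and LAMA5 no longer passed, and COL21A1, ITGA1 (-0.22) and ITGA6 (-0.25) did. The changes of COL1A2 (0.47), COL4A1 (0.48), ITGA9 (0.92), LAMA3 (0.66), COL14A1 (-0.25), COL5A2 (-0.19), COL4A2 (-0.91) and COL7A1 (-0.70) moved by less than 1.5 times. So did those of COL12A1 (0.25), LAMB1 (0.15), ITGA5 (-0.46), COL9A3 (-0.50), COL11A1 (-0.30), COL4A5 (-0.27) and COL4A6 (-0.16). The part of GC content in the other changes was not tested further. In the authors' FPKM values all 26 called members changed in the same direction as in the counts, and for 20 of them the FPKM groups did not overlap. The 26 had been picked on counts of the same libraries, and in normalized CPM the groups of all 26 were apart. No FPKM share of all genes was computed, so this is no separate support.

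**Figure D5:**
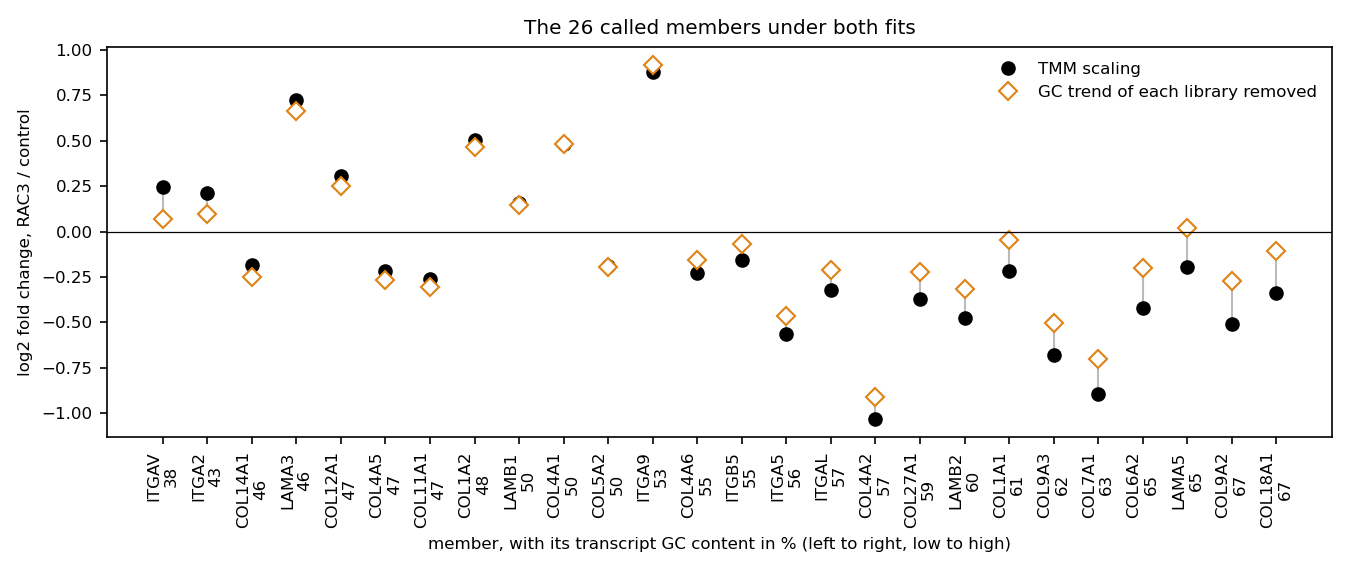
Log2 fold change (RAC3 overexpression over negative control) of the 26 called members, ordered by transcript GC content (in %, under each name), with TMM scaling (black) and with the GC trend of each library removed (orange diamonds). Lines join both values of a member. The values of most members above 55% GC lie closer to 0 after the removal, and LAMA5 crosses 0, from -0.20 to 0.022.

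The genes around the receptors and their ligands were taken from lists written from general knowledge. Of 44 tested adaptors and regulators of integrin adhesion, 4 rose and 14 fell (40.9% passing, beside 28.5% of all genes, 13.3% higher and 15.3% lower, and 40.8% of genes with a mean of at least 500 counts). Their median log2 fold change was -0.064, and with the GC trend removed 2 fell. The number that rose was 1 without the RAC3 sample 3. TNS1 and TNS2, tensins that link integrins to actin, fell by 0.75 and 0.74 on the log2 scale (edgeR adjusted p = 2.0e-05 and 3.5e-04), both past the study's thresholds. TNS1 had 223.9, 163.1 and 145.4 normalized CPM in the negative controls, a wide spread, and 104.1, 103.0 and 109.7 with RAC3. GIT1, a scaffold at focal adhesions, fell by 0.27 (edgeR adjusted p = 2.5e-04). CD47, the integrin-associated protein, rose by a log2 fold change of 0.48 and LIMS1, a partner of integrin-linked kinase, by 0.22 (edgeR adjusted p = 0.00226 and 0.00522).

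Of 33 other matrix ligands tested, 10 rose and 15 fell (75.8% passing, beside the same 28.5% and 40.8%, with a median of -0.12). FN1, fibronectin, the ligand of ITGA5, had 6401, 6073 and 5988 normalized CPM in the negative controls and 4713, 4395 and 4596 with RAC3. It fell by 0.43 on the log2 scale (SE 0.0365, edgeR adjusted p = 1.0e-07), and CCN2, a matricellular protein, by 0.45 (2.8e-07). BGN, the proteoglycan biglycan, and FREM2, a basement membrane protein, fell by 1.17 and 1.12 (edgeR adjusted p = 7.1e-05 and 4.0e-04). TNC, tenascin C, a ligand of ITGA9, had 28, 17 and 19 counts in the negative controls against 48, 61 and 51 with RAC3 and rose by a log2 fold change of 1.27 (SE 0.297, edgeR adjusted p = 0.00344). FBN2, a fibrillin, and FGB, a fibrinogen chain, rose by 0.47 and 0.30 (edgeR adjusted p = 2.9e-07 and 2.6e-05).

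Of 31 tested genes of collagen modification and secretion, 4 rose and 6 fell (32.3% passing, near the 28.5% of all genes, with a median of -0.072), and none passed the study's thresholds. The number that rose was 0 without the RAC3 sample 3 and 1 without the negative control 3. LOXL4, a lysyl oxidase that crosslinks collagen, fell by 0.56 on the log2 scale and PLOD2, a collagen lysyl hydroxylase, by 0.44 (edgeR adjusted p = 6.6e-07 and 8.1e-05). The prolyl hydroxylases P3H2 and P3H1 rose by 0.22 and 0.18 (edgeR adjusted p = 0.0109 and 0.0166). Of 11 tested matrix receptors other than integrins, 1 rose and 7 fell (72.7% passing, beside 28.5% of all genes and 40.8% of the well-counted ones, with a median of -0.22). BCAM, a receptor for LAMA5, fell by 0.43 and DDR1, a collagen-binding kinase, by 0.37 (edgeR adjusted p = 4.2e-07 and 2.4e-04). HMMR, a hyaluronan receptor that also serves the mitotic spindle, rose by a log2 fold change of 0.50 (edgeR adjusted p = 7.4e-06).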

How the data were processed

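RNA of 3 RAC3-overexpressing and 3 negative control samples of Huh-7 cells was sequenced after poly(A) selection, 1 library per sample. The authors deposited raw counts per gene and FPKM values per sample. The submitters' processing notes name Bowtie2 2.2.8, HISAT2, StringTie 1.3.1 and DESeq2. The genome build and annotation are not given in the sources used here, and strand use in counting is not stated. The deposited counts were filtered by filterByExpr of edgeR 4.0.16 under R 4.3.3 (12941 of 20332 genes kept) and scaled by TMM, and the groups were compared by edgeR's two-sided quasi-likelihood test without covariates, with Benjamini-Hochberg adjustment over all genes tested. The biological coefficient of variation was 0.0533. No 2 libraries of a group agreed within counting noise. The steps were tested on simulated data. Total counts were 13855762 to 18199888 per sample.

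Members, gene lists and pairs were chosen with earlier results of these data known. Named were members with an adjusted p below 0.05, members past the study's thresholds, and the 2 with the highest mean FPKM in each class. Values in every sample are given for members past the thresholds with a mean of at least 50 counts and for the 5 in each direction with the smallest p. Other members were named as partners of these after their values were seen. Of the 4 pathway lists, members past both thresholds and the 2 in each direction with the smallest p were named. Transcript GC content and gene spans came from GENCODE release 29, and promoter sequence from RefSeq (58 of 82 members had a promoter window). Alternatives were DESeq2 1.42.0 or its size factors alone, scaling by library size or upper quartile, limma-voom (limma 3.58.1), other filters and thresholds, a replicate block, and leaving out each sample. Correction of libraries for their dependence on GC content or on transcript length and the restriction to genes with at least 500 counts were added after seeing the data. The authors' group means of FPKM were not used. The values of 1 member are not reported here; it is included in the counts.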

Additional observations from a re-analysis of the deposited data

How the results depend on the processing

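Of the 26 members called at an adjusted p below 0.05, 17 kept call and direction under every scaling, filter, tool, block and left-out sample tried and 15 also with the GC or length trend removed, both of which were chosen after seeing the data. Members passing numbered 22 with library size scaling, which moved the median of all genes to 0.060 (COL11A1, COL1A1, COL6A2, ITGAL and ITGB5 were lost and ITGB1 gained), 22 with DESeq2, 27 with limma-voom and 22 with the GC trend removed. In the same order, 30.9%, 24.1%, 28.2% and 20.5% of all genes passed. Leaving out 1 sample at a time gave 6 to 8 members higher and 12 to 17 lower, beside 20.2% to 25.4% of all genes. At an adjusted p below 0.01, 5 members were higher, and above a fold change of 2, 0 were higher and 2 lower. For these 2 thresholds no share of all genes was computed, so the counts cannot be set against it. Over all settings, the threshold of 0.01 included, members passing lower numbered 12 to 19. The median log2 fold change of the collagens, -0.21, was -0.16 with library size scaling and -0.16 with the GC trend removed. That of the integrins, 0.0085, had no stable sign: 0.063 with library size scaling, 0.063 without a filter, -0.053 with limma-voom, and -0.077 to 0.038 when 1 sample was left out. Higher genes of collagen modification numbered 2 with DESeq2 and 0 to 3 with 1 sample left out. Adaptors passing higher numbered 7 with library size scaling, 2 with DESeq2 and 1 to 4 with 1 sample left out, and lower 9 with library size scaling, 2 with the GC trend removed and 9 to 13 with 1 sample left out. Other receptors passing higher numbered 2 without a filter. Members that had not passed changed sign: COL6A1 (0.084), ITGA3 (0.0025), ITGB1 (-0.058) and LAMA4 (-0.0058) with the GC trend removed, ITGA1 (0.0064) and LAMC1 (0.035) with library size scaling, ITGA1 without the RAC3 sample 2 (0.0048, and -0.080 at the lowest with another sample left out), and LAMA4 without 1 of 4 samples (-0.084 to 0.15 over all 6). LAMA5, which had passed, was at 0.022 with the GC trend removed. Causes of these shifts were not tested. With the replicate number as a block, 24 members passed (without COL6A2 and ITGAL), beside 25.2% of all genes. The integrin median was then -0.029 and 2 genes of collagen modification rose. The numbers were not taken as pairing the samples, since the deviations of same-numbered samples correlated at -0.13, -0.062 and -0.015 over 10169 genes. Precision is limited by depth for the 10 tested members with a mean under 50 counts, and by the 3 samples per group.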
